A study of Mus musculus with 5 samples.

Results

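B cells and plasma cells of the mouse mammary gland were picked from droplet single-cell transcriptomes by their own genes. A barcode was kept if it held at least 300 genes and at most 20% mitochondrial UMIs. It was called a plasma cell if it held at least 3 UMIs of Jchain together with Mzb1 or Derl3. Otherwise it was called a B cell if Cd79a, Cd79b and Ms4a1 together gave at least 2 UMIs. Barcodes with any UMI of Epcam, Pecam1, Dcn or Cd3e, or with more than 1 UMI of C1qa, C1qb and C1qc together, were set aside as carrying genes of another cell type. This left 57 cells among 33551 kept barcodes, of which 19 were B cells and 38 were plasma cells.

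The cells came from 5 libraries in 4 groups. All mice carried Krt14cre, a recombinase driven by the promoter of a basal epithelial keratin, and 2 floxed Trp53 alleles, so that the vehicle gland also carried the Trp53 design. BPK mice had 1 floxed and 1 wild-type Brca1 allele, and PK mice had wild-type Brca1 only. The groups were a BPK tumor that had formed after 24 intraductal injections of 4NQO (1 library), BPK glands after 12 injections of 4NQO (2 libraries), a PK gland after 12 injections of 4NQO (1) and a BPK gland after 12 injections of the PBS and PEG vehicle (1). 4NQO is a quinoline carcinogen that forms DNA adducts. The labels do not state the age of the mice, nor whether the BPK 4NQO libraries came from separate animals. Lymph nodes were cut out of the glands before digestion, per the labels' protocols. Whether cells of blood or of remaining node tissue were among those described here was not tested.

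B cells carry a membrane antibody that signals through the partners encoded by Cd79a and Cd79b, and Ms4a1 encodes CD20, a surface protein lost when they become plasma cells. Plasma cells are their antibody-secreting descendants. They enlarge the endoplasmic reticulum under the transcription factor encoded by Xbp1 and, where they make polymeric antibody, add the joining chain encoded by Jchain. In the lactating mammary gland, such cells supply the IgA that epithelial cells carry into milk through the receptor encoded by Pigr.

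Total depth per library ran from 27383717 to 64169843 UMIs, and kept barcodes had median depths between 2591 UMIs (BPK 4NQO replicate 2) and 19533.5 UMIs (tumor). BPK 4NQO replicate 2 stood apart. It shared 1 to 2 barcodes with each other library, whereas the other pairs of libraries shared 26 to 107. It also held 1693 barcodes with a UMI of the leukocyte gene Ptprc, against 262 in replicate 1. Whether its chemistry was that of the label was not tested. None of the 57 cells had a barcode found in another library. The immunoglobulin and T cell receptor constant genes of the lists, 15 in all, are not in the gene table used here. Isotypes were therefore not analysed here, and the UMI totals of plasma cells contain no counts of those genes.

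Plasma cells were found in both BPK 4NQO glands, and the other 3 libraries together held 1. The tumor held none in 2290 kept barcodes. A floor of 3 cells gives 0.131% there, and the upper exact limit was 0.161%. BPK 4NQO replicate 1 held 20 in 7475, a share of 0.268% (exact Clopper-Pearson 95% interval 0.164 to 0.413). BPK 4NQO replicate 2 held 17 in 6960, a share of 0.244% (0.142 to 0.391). PK 4NQO held 1 in 7438, a share of 0.0134%. BPK vehicle held none in 9388, where the floor of 3 cells gives 0.0320% and the upper exact limit was 0.0393%. The intervals and limits cover counting error only.

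The mean plasma cell share of the BPK 4NQO glands was 0.256% ± 0.0165 (SD, n = 2). Ratios use shares averaged on the log2 scale. Here and below, intervals and limits of ratios carry the counting error of the single library only. That of the BPK 4NQO cells is left out, so they are too narrow. BPK 4NQO was 19-fold higher than PK 4NQO, with a counting interval of 3.41 to 751 from the lone PK cell. Against BPK vehicle it was at least 8.0-fold higher, taking 3 cells as the floor for the vehicle library, and at least 6.51-fold with the upper exact limit of that library, 0.0393%, in its place. With the floor of 3 cells, the tumor share was at least 1.95-fold lower than that of the BPK 4NQO glands. With the upper exact limit of the tumor, 0.161%, in its place, the tumor share was at most 0.630 of theirs. Both BPK 4NQO values lay above the intervals of PK 4NQO and BPK vehicle, and the BPK 4NQO replicates differed by less than their counting error. With 2 libraries against 1, the smallest p that an exact one-sided test could give is 0.333, so no test was made and the other groups have no replicate spread. Without either BPK 4NQO replicate the log2 ratio of plasma cell shares was 4.18 or 4.31 against PK 4NQO and at least 2.93 or 3.07 against BPK vehicle. With the highest doublet scores left out PK 4NQO held no plasma cell, and the ratio became a bound of at least 6.34-fold.

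**Figure D1:**
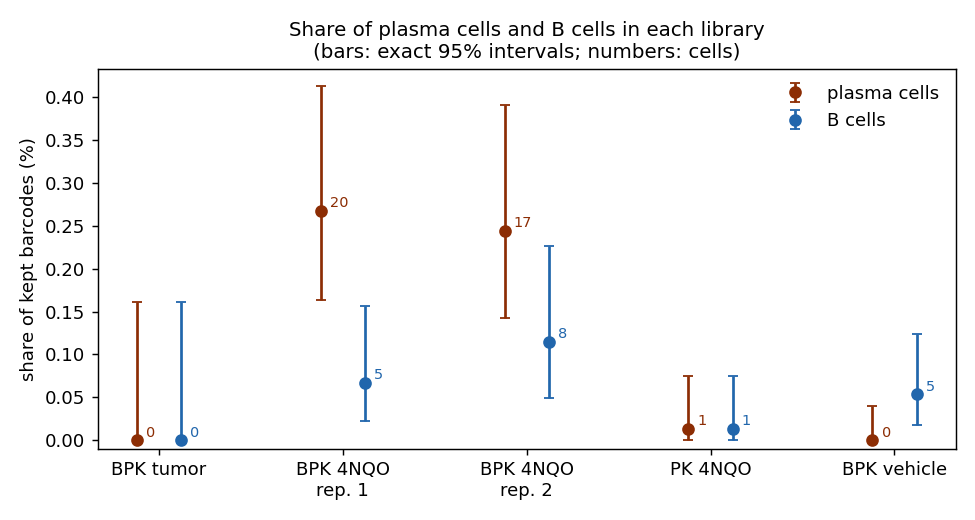
Share of kept barcodes (%) called plasma cells (brown) or B cells (blue) in each library, with exact 95% intervals and the number of cells beside each point. Plasma cells number 20 and 17 in the BPK 4NQO libraries and 0 or 1 in the tumor, PK 4NQO and BPK vehicle libraries, whereas the 5 B cells of BPK vehicle lie within the range of BPK 4NQO counting error.

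B cells were rarer in the BPK 4NQO glands than plasma cells and differed less between groups. The tumor held none, with the same floor of 0.131% and the same upper exact limit of 0.161%. BPK 4NQO replicates 1 and 2 held 5 and 8, or 0.0669% (0.0217 to 0.156) and 0.115% (0.0496 to 0.226). PK 4NQO held 1 (0.0134%) and BPK vehicle held 5, or 0.0533% (0.0173 to 0.124). The BPK 4NQO mean was 0.0909% ± 0.0340 (SD, n = 2). On the averaged log2 shares, BPK 4NQO was 1.65-fold BPK vehicle with a counting interval of 0.706 to 5.07. That difference was not detectable at this depth. Against PK 4NQO the ratio was 6.52 (1.17 to 258), again resting on 1 PK cell. Both intervals leave out the counting error of the 5 and 8 BPK 4NQO cells. No ratio of B cells is given for the tumor, where the floor of 3 cells lies above the BPK 4NQO share. The absence from the tumor rests on the exclusion genes. With no exclusion genes, 3 tumor barcodes met the B cell rule (0.131%). The BPK 4NQO replicates then held 12 and 16 (0.161% and 0.230%), PK 4NQO 4 (0.0538%) and BPK vehicle 11 (0.117%).

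For both cell types together the shares were 0% in the tumor, 0.334% and 0.359% in the BPK 4NQO replicates, 0.0269% in PK 4NQO and 0.0533% in BPK vehicle. The BPK 4NQO glands were 6.51-fold higher than BPK vehicle (2.79 to 20.04) and 12.9-fold higher than PK 4NQO (3.57 to 106). With the floor of 3 cells, the tumor was at least 2.65-fold lower than the BPK 4NQO glands. With its upper exact limit, it was at most 0.464 of their share. As a share of barcodes with a Ptprc UMI, the order was weaker. Such cells were 7 of 262 and 11 of 1693 in the BPK 4NQO replicates, 1 of 108 in PK 4NQO and 1 of 158 in BPK vehicle, or 2.67% and 0.650%, 0.926% and 0.633%. The PK 4NQO value lay between the BPK 4NQO replicates, so the direction against it turns with replicate 2 alone, whose share was also close to that of BPK vehicle. On that denominator the ratio of both replicates to PK 4NQO was 1.42 and that to BPK vehicle was 2.08. The B cell ratio to PK 4NQO turned round, to 0.794. Only 8 of the 37 plasma cells of BPK 4NQO held a Ptprc UMI, 3 in replicate 1 and 5 in replicate 2.

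The selecting genes set the 2 types well apart, as the rule makes them. Jchain ran from 18 to 278 UMIs in the 20 plasma cells of BPK 4NQO replicate 1 (median 98.5) and from 8 to 162 in the 17 of replicate 2 (median 57). The PK 4NQO plasma cell held 247. All of these lay far inside the threshold of 3. Among barcodes without an exclusion gene that were called neither type, 7 and 9 of the BPK 4NQO replicates held 1 or 2 Jchain UMIs, against 2 in PK 4NQO and none in BPK vehicle. In PK 4NQO alone, 1 further barcode held at least 3 Jchain UMIs but no Mzb1 or Derl3. Also in PK 4NQO alone, 1 barcode without an exclusion gene met the rule for either type but failed the limits on genes or mitochondrial UMIs. Of the B cells, 2, 1 and 1 in BPK 4NQO replicate 1, replicate 2 and BPK vehicle sat exactly at 2 UMIs. Just outside, and again without an exclusion gene, 6, 2, 6, 5 and 1 barcodes held 1 UMI in BPK 4NQO replicate 1, replicate 2, PK 4NQO, BPK vehicle and the tumor. Plasma cells that would also have met the B cell rule numbered 9 and 4 in the BPK 4NQO replicates, and the PK 4NQO plasma cell met it too.

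**Figure D2:**
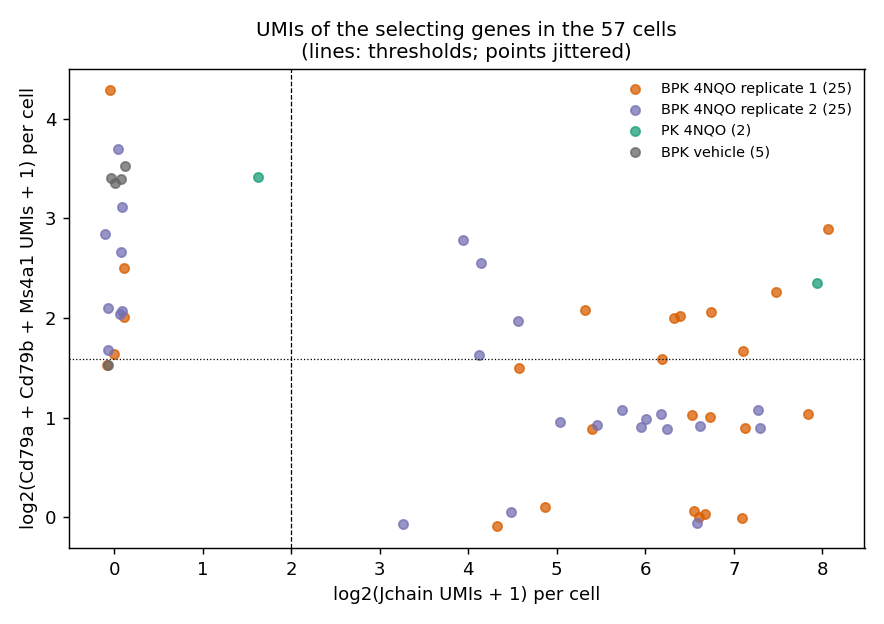
Each point is 1 of the 57 cells, placed by log2(Jchain UMIs + 1) and by log2(summed Cd79a, Cd79b and Ms4a1 UMIs + 1), with the thresholds of 3 and 2 UMIs as dashed and dotted lines. B cells stand at or near 0 Jchain, and plasma cells at 8 to 278 UMIs with no cell near the dashed line except the PK 4NQO B cell at 2.

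Jchain (chr5:88519809-88527891, minus strand, mm10) was also counted in barcodes that met the plasma cell rule but that the exclusion genes set aside. The library totals of Jchain were 5 UMIs in the tumor, 2558 and 2396 in the BPK 4NQO replicates, 804 in PK 4NQO and 532 in BPK vehicle. The cells described here held 81.9% and 41.6% of it in the BPK 4NQO replicates, 31.0% in PK 4NQO and none in BPK vehicle. With the barcodes set aside for an exclusion gene, the barcodes that met the plasma cell rule held 96.4%, 96.3%, 94.5% and 97.9% of it. In Epcam-positive epithelial barcodes, which should lack the gene, 1.50% and 1.30% held a Jchain UMI in the BPK 4NQO replicates, 0.503% in PK 4NQO and 0.155% in BPK vehicle. Their median depths were 6591, 3923, 4949 and 7122 UMIs.

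The plasma cells carried the transcripts of a secreting cell. Values are CPM, the summed UMIs of a gene over the cells scaled to 1000000 UMIs in all, and the other kept barcodes of the same library serve as the comparison. Genes with at least 20 UMIs in the 37 BPK 4NQO plasma cells numbered 553. Of these, 69 (12.5%) were at least 4-fold higher than in the other barcodes in both replicates, and 1 (0.181%) was at least 4-fold lower in both, the cytoskeletal actin gene Actg1. The minimum of 20 UMIs in plasma cells kept out most genes that are low in them, so the balance of higher and lower genes is set by that filter. The 69 include the selecting genes Jchain, Mzb1, Derl3, Cd79a and Cd79b. The rule chose these cells on their expression, so these folds are a description and carry no test.

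Of these 69 genes the one with most UMIs was Slpi, which encodes a secreted inhibitor of leukocyte proteases (chr2:164354070-164389095, minus strand). It was found in 35 of the 37 BPK 4NQO plasma cells. It stood at 80513 CPM in the 20 plasma cells of replicate 1 and 29524 CPM in the 17 of replicate 2, against 709 and 356 CPM in the other barcodes. The folds were 114 and 82.9. Slpi thus outnumbered Jchain, which stood at 33256 CPM, in replicate 1, and was level with it, at 29554 CPM, in replicate 2.

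Slpi varied widely from cell to cell. It made up 0.0939% to 28.8% of a plasma cell's UMIs in replicate 1, with a median of 4.38%, and 0% to 15.8% in replicate 2, with a median of 1.71%. The replicates overlapped. The highest cell held 1354 of the 5072 Slpi UMIs in replicate 1 and 280 of the 995 in replicate 2. Without that cell the levels were 64110 and 22393 CPM. The PK 4NQO plasma cell held 309 Slpi UMIs, or 18.8% of its total, though it was among the barcodes with the highest doublet scores of its library.

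Slpi is also an epithelial gene, and Epcam-positive barcodes held 721 and 509 CPM in the BPK 4NQO replicates, with a UMI in 49.5% and 35.4% of them. B cells of the same libraries held next to none. There was 1 Slpi UMI in 1 of 5 B cells of replicate 1 and 2 UMIs in 1 of 8 of replicate 2. BPK vehicle B cells held none, and the PK 4NQO B cell held 4.

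**Figure D3:**
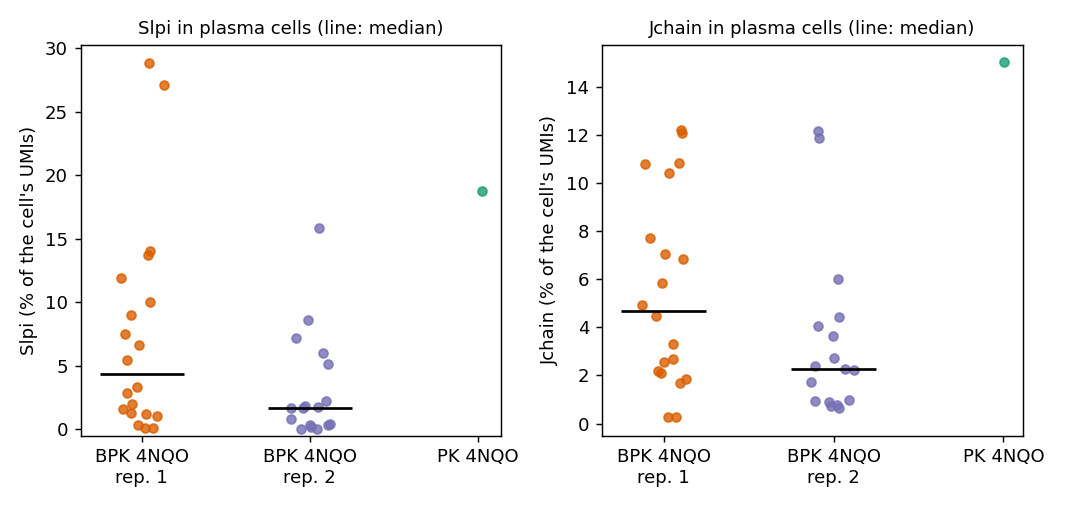
Percent of each plasma cell's UMIs that were Slpi (left) or Jchain (right) in BPK 4NQO replicate 1 (20 cells), BPK 4NQO replicate 2 (17) and PK 4NQO (1), with the median as a line. Slpi medians were 4.38% and 1.71% and Jchain medians 4.70% and 2.28% in the BPK 4NQO replicates, with ranges that overlap.

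Genes of the secretory route stood among the leading genes. The plasma cell and secretory list holds 22 genes, all of which were detected in plasma cells of both BPK 4NQO libraries. Of these, 17 reached 20 UMIs and 16 were at least 4-fold higher in both replicates, against 12.5% of all genes compared. That share includes the list genes themselves. The median level of the list was 524 and 490 CPM in plasma cells of the replicates and 44.5 CPM over the 13 BPK 4NQO B cells. Its summed level was 19271 and 22166 CPM in plasma cells, against 1885 and 3167 CPM in the other barcodes. Hspa5, the chaperone BiP, was the member with enough UMIs that fell short, at 4.60-fold and 1.90-fold.

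Xbp1 (chr11:5520659-5525893, plus strand) stood at 1492 and 1988 CPM in plasma cells of the replicates, 12.9-fold and 12.5-fold above the other barcodes, and was found in 35 of 37 cells. Hsp90b1, the chaperone GRP94, reached 3953 and 6380 CPM. Ssr4, a subunit of the translocon-associated complex, reached 2762 and 3175 CPM, and Sec11c, a signal peptidase subunit, 1445 and 1513 CPM. Edem1, which routes misfolded glycoproteins to degradation, was 32.02-fold and 14.3-fold higher. Herpud1, another gene of that disposal route, was 17.8-fold and 16.5-fold higher. Eaf2, an elongation factor partner found in 17 of 20 and 12 of 17 cells, was 165-fold and 269-fold higher. Its companion Ell2, an elongation factor tied to secretory immunoglobulin processing, was 10.5-fold and 4.00-fold higher.

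Regulators and surface proteins that define plasma cells were seen in few cells. Irf4, which drives the plasma cell fate, was found in 4 of 20 and 4 of 17 cells. Prdm1, the repressor Blimp-1, was found in 1 and 7 cells at 15.9 and 297 CPM, and Sdc1, the surface proteoglycan CD138, in 4 and 4. In the other barcodes of the replicates Prdm1 was found in 3.22% and 7.43% and Sdc1 in 18.99% and 14.7%, and the levels of Sdc1 were 2.12 and 1.80 times that background. Tnfrsf17, the survival receptor BCMA, was found in 3 and 1 cells and Tnfrsf13b, the receptor TACI, in 7 and 3. These 5 genes stayed under 20 UMIs. Slamf7, another surface protein of plasma cells, reached it, at 177-fold and 7.73-fold.

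**Figure D4:**
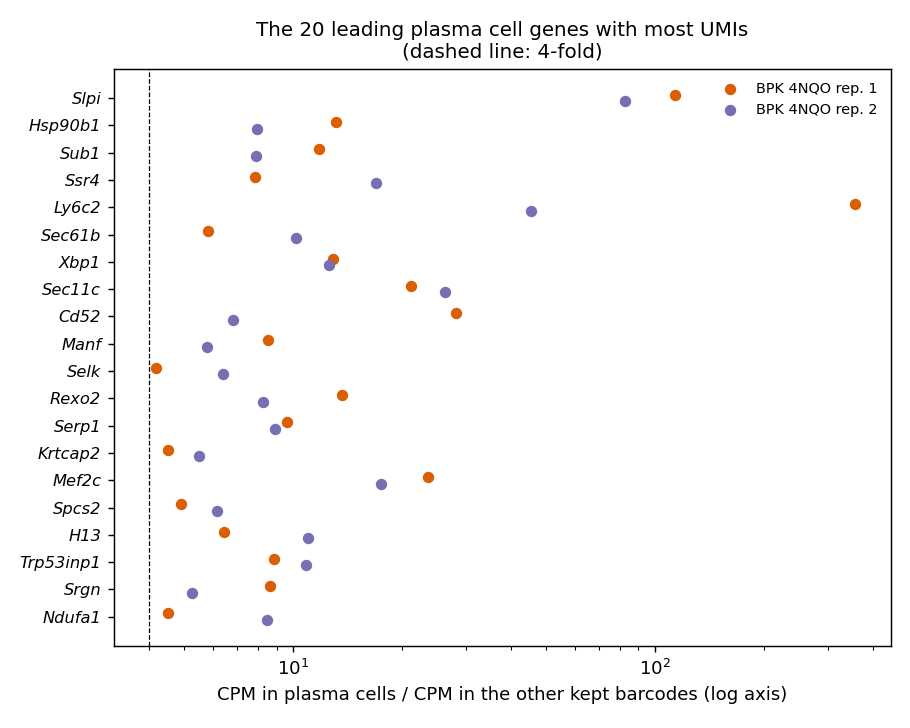
Ratio of CPM in plasma cells to CPM in the other kept barcodes (log axis) for the 20 genes with most plasma cell UMIs among those at least 4-fold higher in both BPK 4NQO libraries, leaving out the selecting genes. Slpi stands at 114-fold and 82.9-fold, Ly6c2 at 358-fold and 45.4-fold, and Xbp1 at 12.9-fold and 12.5-fold in replicates 1 and 2.

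A promoter element of this secretory program was looked for in the letters just before the RefSeq start of each gene (GRCm38.p6, the assembly of mm10). The ER stress response element, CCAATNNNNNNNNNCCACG, is bound by NF-Y together with ATF6 or XBP1. It was searched on both strands in the 250 bases before the start, taking the first start listed for each gene. It was present in 3 of the 20 list genes with a promoter in the table, namely Creld2, Hsp90b1 and Hspa5, and in 33 of 27025 promoters in all (0.122%). The selecting gene Derl3 also held it. The stretches are shown, in the direction of the gene, because they are the list's matches, with the element in capitals. Where the capitals begin with CGTGG the element lies on the opposite strand.
Creld2 (chr15:88819500-88819558, plus strand): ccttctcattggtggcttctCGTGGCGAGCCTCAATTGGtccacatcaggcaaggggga
Hsp90b1, farther match (chr10:86705618-86705676, minus strand): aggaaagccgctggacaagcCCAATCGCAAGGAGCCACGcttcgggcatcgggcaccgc
Hsp90b1, nearer match (chr10:86705513-86705571, minus strand): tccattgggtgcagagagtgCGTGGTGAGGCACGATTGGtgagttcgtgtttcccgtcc
Hspa5 (chr2:34772005-34772063, plus strand): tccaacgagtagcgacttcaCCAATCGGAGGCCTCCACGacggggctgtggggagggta
Derl3 (chr10:75893222-75893280, plus strand): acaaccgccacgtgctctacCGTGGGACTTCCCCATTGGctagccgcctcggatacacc

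The elements began 126 bases before the start of Creld2, 212 and 107 before that of Hsp90b1, 65 before that of Hspa5 and 156 before that of Derl3. Creld2, a secreted protein of the stress response, was 21.5-fold and 16.1-fold higher in plasma cells of the replicates, and Hsp90b1 13.1-fold and 7.94-fold. Hspa5, the other list gene with the element, fell short of 4-fold in replicate 2. No match was recorded for Jchain or Slpi, whose presence among the promoters searched was not checked. The same windows were searched for TGACGTGG, the unfolded protein response element, and for ATGCAAAT, the octamer of immunoglobulin promoters. No match to either was recorded for the 20 list genes, Jchain, Derl3, Slpi or Cd79a, and they occur in 0.503% and 1.61% of all promoters. The presence of Cd79a among the promoters was not checked either. A match is a string of letters and not a measured site of binding.

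Plasma cells of the BPK 4NQO glands also held genes outside the secretory list. Ly6c2 (chr15:75108158-75111970, minus strand), which encodes a surface antigen of the Ly6 family, stood at 2841 and 2225 CPM, 358-fold and 45.4-fold higher than in the other barcodes. It was not even among the cells. It was found in 13 of 20 and 8 of 17, with up to 54 and 44 UMIs. Itga4, the integrin subunit that binds VCAM1, was found in 4 and 11 cells at 77.0-fold and 23.4-fold. Cd69, which holds lymphocytes in tissue, was found in 5 and 12 cells at 37.9-fold and 24.9-fold. B cells also held Itga4 and Cd69. With each cell of all libraries thinned to 1000 UMIs, Cd69 was found in 3 of 9 B cells and 10 of 32 plasma cells. Itga4 was found in 2 of 9 and 7 of 32. The folds of these genes over the other barcodes thus do not set plasma cells apart from B cells. Ly6c2 was found in 0 of 9 B cells and 18 of 32 plasma cells. Cd69 was the member past 4-fold among the 12 immediate-early genes with enough UMIs, a share near the 12.5% of all genes. Fos stood at 667 and 682 CPM, 0.17 and 0.29 times the other barcodes.

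Among homing receptors, Ccr10, the receptor by which IgA plasma cells enter the lactating gland, was found in 3 of 20 and 1 of 17 plasma cells. It was found in 0.161% and 0.115% of other barcodes. Cxcr4, the CXCL12 receptor that retains plasma cells in marrow, was found in 4 and 2 cells. Ccr9, the gut homing receptor, and Itgb7, the gut integrin subunit, were at 0 UMIs in all plasma and B cells. Vpreb3, a gene of immature B cells, was found in 9 and 3 plasma cells, against 0.0134% and 0.0431% of other barcodes. The other precursor genes were at 0 in plasma cells except Cd93 with 1 UMI. The cytokine gene Il10 was found in 2 and 2 cells.

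The interferon list summed to 1794 and 4481 CPM in plasma cells of the BPK 4NQO replicates, against 2731 and 3966 CPM in the other barcodes. Only 3 of its 20 genes reached 20 UMIs, too few to set their 0 calls against the 12.5% of all genes. Ifi27l2a was the highest, at 794 and 2314 CPM and 3.33-fold and 5.55-fold, followed by Ly6e at 444 and 1039 CPM. Of all 38 plasma cells, 25 held Ifi27l2a, 24 Ly6e, 16 Bst2, 11 Zbp1 and 6 Isg15. The antiviral genes Ifit2, Ifit3, Rsad2, Mx1 and Oasl2 were at 0 UMIs in both types of cell.

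Cell cycle genes were found in some plasma cells. Mki67 or Top2a was found in 6 of 20 cells of BPK 4NQO replicate 1 and 4 of 17 of replicate 2, and both genes together in 1 cell of each. In replicate 1, 6 plasma cells had at least 4000 UMIs, and 4 of them held Mki67 or Top2a, against 2 of the 14 shallower ones. Depth thus moved with detection. Those 6 cells held 57 UMIs of the 14 proliferation genes in 12639, 33 in 7756, 21 in 5772, 12 in 4461, 2 in 5002 and 2 in 4066. The replicate 2 cell with both genes held 35 such UMIs in 3173, with 8 of Mki67 and 6 of Top2a. After each cell was thinned to 1000 UMIs, which left 32 of the 38 plasma cells, Mki67 was found in 1 and Top2a in 2. In replicate 1 the cells with at least 4000 UMIs also had a lower Jchain share, with a median of 1.77% against 6.44% in the shallower cells. Over the cells of a library, total UMIs and Jchain percent had a Spearman rho of -0.66 (20 cells) in replicate 1 and -0.42 (17 cells) in replicate 2, where the cells share a library and total UMIs include Jchain.

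The 19 B cells carried genes of mature B cells. Of the 20 genes of the naive and follicular list, 18 are in the gene table, and all 18 were found in at least 1 B cell, against 7 in the 37 BPK 4NQO plasma cells. Detection in at least 1 B cell is a loose measure. It was also met by all 16 immediate-early genes, 13 of 14 proliferation genes and 15 of 22 secretory genes. It was met by 4 of 10 germinal centre, 3 of 10 memory and 2 of 8 precursor genes. Ebf1, a factor of B lineage commitment, was found in 14 of 19 B cells and 5 of 38 plasma cells. It was found in 21.0% and 22.6% of other barcodes of the BPK 4NQO replicates, so it does not mark B cells alone in this tissue. The tetraspanin Cd37 was found in 9 B cells, the adaptor Bank1 in 7 and the factor Pax5 in 4. In other barcodes of the BPK 4NQO replicates Pax5 was found in 0.0268% and 0.0865%. Plasma cells held Cd37 and Pax5 in none of 38 and Bank1 in 2. After thinning to 1000 UMIs, which left 9 B cells and 32 plasma cells, Ebf1 was found in 4 and 1 and Cd37 in 3 and 0.

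Genes of position in lymphoid tissue were present in part of the B cells. Ccr7, the receptor that guides cells to lymph node T zones, was found in 6 of 19, in 2 cells each of BPK 4NQO replicate 1, replicate 2 and BPK vehicle. Cxcr5, the follicle receptor, was found in 4, and the follicular marker Fcer2a, which encodes CD23, in 4. S1pr1, which guides exit from lymphoid tissue, was found in 4 cells, all of BPK 4NQO replicate 2. Ltb, which encodes a subunit of the lymphotoxin that builds lymphoid tissue, was found in 7. Plac8, held on the marginal zone and B1 list, was found in 7 B cells, but also in 27.3% and 12.7% of other barcodes of the BPK 4NQO replicates. Among the rest of that list no gene was found in more than 1 B cell.

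Germinal centre genes were found in few cells, apart from Basp1, a membrane protein gene that was found in 9 plasma cells of each BPK 4NQO replicate at 1.38 and 1.60 times the other barcodes. Bcl6 and Mef2b were at 0 UMIs in all 57 cells. The PK 4NQO B cell alone held Rgs13, with 4 UMIs, and Gcsam, with 1 UMI, which are expressed in germinal centre B cells. It also held 34 UMIs of the 14 proliferation genes, Top2a with 5 among them, in 3478 UMIs in all. A B cell of BPK 4NQO replicate 2 held 48 UMIs of the same genes in 4169, with 10 of Top2a and 6 of Mki67. The BPK vehicle B cells held 2 in 4201, and each of the other BPK 4NQO B cells held 3 or fewer.

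Class II antigen presentation genes were found in both types and stood higher in the summed B cells. Cd74, the class II invariant chain, was found in all 19 B cells and in 33 of 38 plasma cells. It stood at 4492 and 2849 CPM in plasma cells of the BPK 4NQO replicates and at 18920 CPM (exact Poisson 95% interval 16332 to 21802, counting error only) and 8389 CPM (6855 to 10165) in their B cells. H2-Aa, a class II alpha chain, stood at 302 and 208 CPM in plasma cells and 5448 and 1775 CPM in those B cells. H2-Ab1, its beta chain, stood at 508 and 475 CPM in plasma cells and 2377 and 3065 CPM in those B cells. The B cell replicates differed in Cd74 and H2-Aa by more than counting error, and each stood above both plasma cell values. Cd74 was also found in 21.5% and 43.1% of other barcodes, at 471 and 1957 CPM, and the plasma cells of replicate 2 were 1.46-fold above that level. H2-DMb2, which helps load peptides, was found in 12 B cells and 1 plasma cell. Costimulatory Cd86 was found in 4 B cells and no plasma cell, and Cd83 in 8 B cells.

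**Figure D5:**
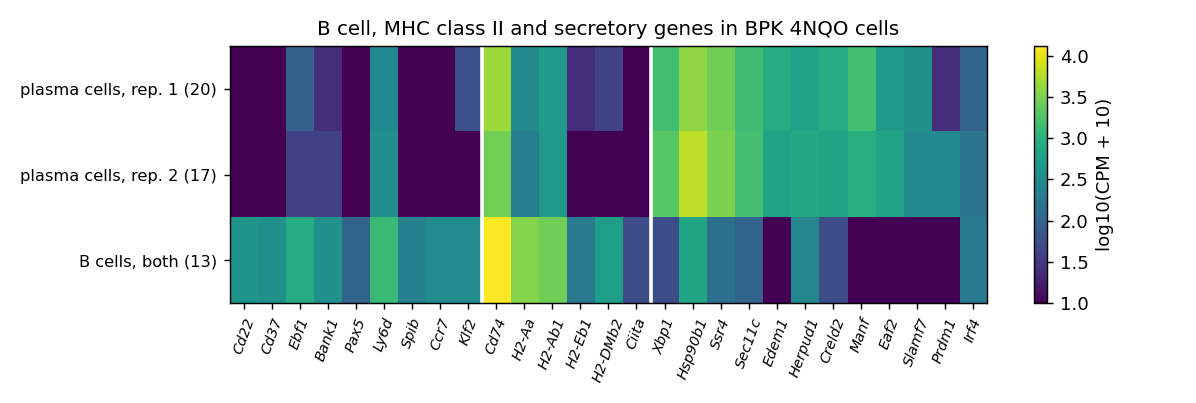
Colour gives log10(CPM + 10) of B cell, MHC class II and secretory genes in the summed plasma cells of BPK 4NQO replicate 1 (20 cells) and replicate 2 (17 cells) and in the 13 B cells of both libraries. Cd74 stands at 4492, 2849 and 13116 CPM and Xbp1 at 1492, 1988 and 44.5 CPM in the same order.

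The B cells of BPK 4NQO and BPK vehicle could not be compared gene by gene. No library held the 30 B cells set as a minimum for a test, and the most was 8. The naive and follicular list summed to 5547 and 5485 CPM in B cells of the BPK 4NQO replicates, 2300 CPM in the PK 4NQO B cell and 13330 CPM in the BPK vehicle B cells. In the other barcodes of these libraries it summed to 2512, 1086, 1656 and 1480 CPM. Its member Ly6d gave 27 of the 56 B cell UMIs in replicate 1 but 3 of the 68 in replicate 2. Ly6d was also found in 50.6% and 21.7% of other barcodes of the replicates. Class II genes summed to 28925 and 14036 CPM, 25014 CPM and 23566 CPM in the same order. The replicates of BPK 4NQO differed from each other in class II by more than either differed from the vehicle library. Median depth was 945, 1209, 3478 and 823 UMIs per B cell.

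Markers of other cells are partly fixed by the exclusion genes, so their levels describe the cells and give no separate support for the types. The 3 T cell genes in the gene table and the 4 hemoglobin genes were at 0 UMIs in every cell. Natural killer genes gave 1 UMI. Epithelial markers gave 23 and 7 UMIs in plasma cells of the BPK 4NQO replicates, or 365 and 208 CPM, against 8769 and 5005 CPM in the other barcodes. Of the plasmacytoid dendritic list, Bst2 and Tcf4 were found in plasma cells, and the defining gene Siglech was at 0. Macrophage markers gave 3 and 11 UMIs. Of the 57 cells, 2 were among the barcodes with the highest doublet scores, 1 B cell of BPK 4NQO replicate 1 and the PK 4NQO plasma cell.

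Signals that recruit or keep B lineage cells were read in the other cells of each library. Tnfsf13b, the B cell survival factor BAFF, stood in Dcn-positive stromal barcodes at 3.93 CPM in the tumor (2.03 to 6.86, counting error only), 20.7 (14.9 to 27.98) and 11.9 (9.18 to 15.1) in the BPK 4NQO replicates, 8.14 (3.51 to 16.0) in PK 4NQO and 3.68 (1.68 to 6.98) in BPK vehicle. Both BPK 4NQO values lay above the BPK vehicle interval, and the PK 4NQO interval held 1 of them. In barcodes with more than 1 C1q UMI, a macrophage gate, the order differed, with 9.28 CPM (3.41 to 20.2) in the tumor, 15.9 (5.85 to 34.7) and 11.8 (7.55 to 17.5) in the BPK 4NQO replicates, 0 in PK 4NQO and 28.4 (14.2 to 50.9) in BPK vehicle. Cxcl13, which draws B cells through CXCR5, stood in the Dcn-positive barcodes at 0, 136, 17.1, 7.12 and 27.4 CPM in the order of tumor, BPK 4NQO replicates, PK 4NQO and BPK vehicle, so the BPK vehicle value lay between the BPK 4NQO replicates. Cxcl12 stood in the same barcodes at 355, 937, 459, 425 and 387 CPM. In Pecam1-positive barcodes without Epcam or Dcn it stood at 157, 1114, 1602, 1201 and 1598 CPM. There the PK 4NQO and BPK vehicle values lay between the BPK 4NQO replicates. Pigr in Epcam-positive barcodes stood at 0.37, 4.84, 8.80, 4.35 and 2.40 CPM, and Ccl28, the CCR10 ligand, at 0.26 CPM or less in every library. These values have 1 library in each group except BPK 4NQO and were not tested.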

How the data were processed

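Mammary gland and tumor cells were profiled with 10x Genomics 3' v2 chemistry, per the labels' protocols, though BPK 4NQO replicate 2, which shares few barcodes with the other libraries, may differ from that label. The authors deposited UMI counts of 27998 genes in called barcodes of 500 UMIs or more, obtained with Cell Ranger (3.0.2 in PK 4NQO and 5.0.1 elsewhere, per the file headers) on the mm10 genome. How cells were called is not given in the sources used. Doublets were kept, and scrublet scores (scanpy 1.11.5) served as an alternative.

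The cells were chosen by UMI thresholds on named genes, and counts were summed per library and cell type and expressed as CPM. Shares carry exact Clopper-Pearson 95% intervals and CPM exact Poisson intervals, both of which cover counting error only. Ratios set the BPK 4NQO share, averaged on the log2 scale, against a single library. The intervals of these ratios carry the counting error of that library only, not that of the BPK 4NQO cells. A group with 0 cells is set at a floor of 3 cells, and its ratio is a bound given that floor. The upper exact limit is wider. The members and the 24 gene lists were chosen with earlier results of these data known. Genes named are those of the lists and the rule, and genes with at least 20 UMIs that differed at least 4-fold from the other barcodes in both BPK 4NQO libraries. Levels are UMIs at the 3' end, for which transcript length is not a factor. The symbols Cd37, Ccl19 and Ccl21a have 2 identifiers each and were summed. Planned tests of B cell genes were not made, because no library held 30 B cells, and isotypes were not analysed here. Some genes of the lists are not reported here. Other barcodes differ between libraries in cell makeup. Locations are from the GENCODE mouse annotation, and computations used Python 3.11.15, numpy 2.4.6, scipy 1.17.1 and pandas 2.3.3.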

Additional observations from a re-analysis of the deposited data

Results flagged for a closer look

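Barcodes that met the plasma cell rule but carried a gene of another cell type were flagged because they appear in data that the comparisons do not use, above the level in BPK vehicle. They made up 0.0669% of kept barcodes in BPK 4NQO replicate 1 (5 barcodes, interval 0.0217 to 0.156) and 0.230% in replicate 2 (16 barcodes), against 0.0107% in BPK vehicle (1 barcode, interval up to 0.0593). PK 4NQO held 2 and the tumor none. The interval of replicate 1 overlaps that of BPK vehicle.

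In replicate 1 all 5 held Epcam. In replicate 2, 7 held Epcam, 3 Pecam1, 5 Dcn and 1 C1q transcripts. Slpi was found in all 5 (27 to 945 UMIs), in all 16 (1 to 241 UMIs) and in both PK 4NQO barcodes (36 and 309 UMIs), both among the highest doublet scores. The BPK vehicle barcode held 521 Jchain, 14 Slpi and 3 Epcam UMIs and was among the highest doublet scores of its library. In BPK 4NQO, 0 of the 5 and 3 of the 16 were among the highest scores. Whether these barcodes hold 2 cells or free RNA was not tested. With them, plasma cells number 25 and 33 in the BPK 4NQO replicates, 3 in PK 4NQO and 1 in BPK vehicle.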

How the results depend on the processing

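Over 9 settings, 64 of the 68 alternative values of the share comparisons kept their direction and stayed within their counting error or replicate spread. Many of these intervals are wide, and those of bounds are open-ended, so the count is not a measure of stability. The B cell ratio to PK 4NQO fell from 6.52 to 2.16 after thinning and still lay within its interval. With barcodes that hold a Ptprc UMI as the denominator, the log2 ratio of both cell types together moved to 1.06 against BPK vehicle, from 2.70, and to 0.51 against PK 4NQO, from 3.69. The B cell ratio against PK 4NQO reversed there, to -0.33. With a minimum of 500 genes the bound for both types in the tumor against BPK 4NQO moved to -0.995. The cause was not tested. Of the plasma cell ratios against PK 4NQO, the lowest were 6.34 (a bound) with the highest doublet scores left out, 9.87 without exclusion genes and 10.3 after thinning. Against BPK vehicle these gave 7.84 (a bound), 37.4 and 26.9, and the lowest bound was 6.63, at a minimum of 500 genes.

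Without 1 BPK 4NQO replicate, log2 ratios against BPK vehicle ran from 2.65 to 2.75 for both types, from 0.33 to 1.11 for B cells and from 2.93 to 3.07 for plasma cells. Against PK 4NQO they ran from 3.64 to 3.74, from 2.31 to 3.096 and from 4.18 to 4.31. The tumor bounds ran from -1.46 to -1.35 for both types and from -1.03 to -0.90 for plasma cells. No value could be given for B cells of the tumor, nor with the Ptprc denominator for the tumor or for plasma cells, where the floor of 3 cells lay above the BPK 4NQO share. No paired analysis was possible because BPK 4NQO alone has replicates. The planned tests of B cell genes and their alternatives were not run, for want of 30 B cells in any library. Depth limits detection of single genes, since B cells held a median of 823 to 3478 UMIs.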
